A study of Homo sapiens with 2 samples.

Results

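The 10 genes described here encode sensors of foreign RNA and DNA and the proteins directly around them: RIGI (DDX58 in older annotation), IFIH1, DHX58, MAVS, TLR3, EIF2AK2, ZBP1, ADAR, TRIM25 and CGAS (formerly MB21D1 or C6orf150). They were found by the RefSeq accession of each probe, which gave 15 of the 42405 probes of the array and 10 of the 19740 genes it names. Of the 15 probes, 14 were well above background and all 10 genes were measured, against 25664 measured probes and 13812 measured genes in all.

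RNA came from RWPE-1 cells, an immortalised noncancerous epithelial line of human prostate, which had been transfected at 30 nM with pre-miR-424, a synthetic precursor that cells turn into the microRNA miR-424, or with a precursor used as control (Negative control #1). Both kinds of cells grew in serum-free keratinocyte medium and both received a synthetic RNA, so that the comparison is between RNAs and not with untransfected cells. The 2 RNAs were hybridised together on 2 Agilent two-colour arrays, with pre-miR-424 RNA in Cy5 and control RNA in Cy3 on the normal labelling and the reverse on the dye swap. The arrays are technical replicates of 1 comparison in 1 cell line, so each value is given per array with the mean and SD of the arrays, which cover labelling and hybridisation error only, and no p-value was computed.

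Cells recognise foreign nucleic acid by a small set of receptors. RIGI and IFIH1 (also called MDA5) are helicases that bind double-stranded RNA in the cytosol and signal through the mitochondrial adaptor MAVS, DHX58 (LGP2) is their relative without a signalling domain, TLR3 binds double-stranded RNA in endosomes, and CGAS binds DNA in the cytosol and makes the messenger cGAMP. EIF2AK2 (PKR) stops translation when it binds double-stranded RNA, ADAR edits such RNA and so keeps the cell's own transcripts from being taken for foreign ones, and ZBP1 binds nucleic acids in the Z form and can start cell death. Signalling from these receptors induces interferons, which in turn raise transcription of many of the sensor genes, commonly through a promoter element built of repeated GAAA blocks.

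The microRNA for which the precursor is named is shown because its delivery is what separates the cells compared. The 5p arm of miR-424 in RefSeq (build GRCh38.p14, chrX:134546680-134546701, minus strand) is printed with its seed, bases 2 to 8, in capitals.
hsa-miR-424-5p: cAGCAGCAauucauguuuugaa

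The promoters of 4 sensors are shown because the GAAA element is a sequence feature commonly linked to genes of this kind, and the members differed in their ratios. Windows of 250 bases before to 50 after a start site were taken from RefSeq (GRCh38.p14), which gave 9 windows for 7 of the 10 genes, with none for DHX58, ZBP1 and CGAS. Capitals mark matches of GAAANGAAA or GAAANNGAAA on either strand, where overlapping matches run together. The shorter spacing was added after the windows had been read.
RIGI (chr9:32526147-32526446, minus strand): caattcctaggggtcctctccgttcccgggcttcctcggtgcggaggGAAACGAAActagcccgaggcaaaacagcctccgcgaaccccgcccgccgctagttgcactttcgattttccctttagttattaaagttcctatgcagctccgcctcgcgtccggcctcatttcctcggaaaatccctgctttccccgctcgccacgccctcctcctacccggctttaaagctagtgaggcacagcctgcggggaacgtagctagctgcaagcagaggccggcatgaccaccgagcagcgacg
IFIH1 (chr2:162318635-162318934, minus strand): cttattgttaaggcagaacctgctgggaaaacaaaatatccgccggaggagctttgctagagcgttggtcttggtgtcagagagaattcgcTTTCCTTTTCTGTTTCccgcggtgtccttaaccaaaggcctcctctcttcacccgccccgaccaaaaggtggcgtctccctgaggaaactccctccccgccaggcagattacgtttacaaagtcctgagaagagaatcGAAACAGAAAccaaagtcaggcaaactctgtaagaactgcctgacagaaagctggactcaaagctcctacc
EIF2AK2 (chr2:37156931-37157230, minus strand): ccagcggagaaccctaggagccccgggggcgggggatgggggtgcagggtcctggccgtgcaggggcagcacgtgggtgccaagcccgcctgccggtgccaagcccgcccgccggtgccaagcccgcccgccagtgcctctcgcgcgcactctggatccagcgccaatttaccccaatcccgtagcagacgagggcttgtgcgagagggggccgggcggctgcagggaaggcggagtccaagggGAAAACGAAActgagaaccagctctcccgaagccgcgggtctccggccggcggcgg
TLR3 (chr4:186068906-186069205, plus strand): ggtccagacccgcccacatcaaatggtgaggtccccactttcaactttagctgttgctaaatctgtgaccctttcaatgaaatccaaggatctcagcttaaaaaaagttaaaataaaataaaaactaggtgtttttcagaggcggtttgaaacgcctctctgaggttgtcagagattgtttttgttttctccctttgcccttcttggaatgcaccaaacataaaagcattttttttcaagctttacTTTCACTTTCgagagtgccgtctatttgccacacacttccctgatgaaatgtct

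RIGI held GAAANGAAA at positions −203 to −195 from its start site, and TRIM25 held it at −3 to 6. GAAANNGAAA lay at −6 to 4 in EIF2AK2, at −4 to 6 in TLR3 and at 3 places in IFIH1, of which a pair overlapped between −159 and −144 and the other spanned −21 to −12. No match lay in the windows of MAVS and ADAR. Of all 35116 windows, 3.12% held the shorter and 3.57% the longer form, and 6.40% held either. Among the 7 genes with a window, 5 held either form, which counts genes where the percentages count windows. RIGI and TRIM25 are among them only by the shorter form, which was added after the windows had been read. These are matches of letters in a window and not binding sites.

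All sensors but ZBP1 stood far above background. ADAR and TRIM25 had spot signals of 6943.5 to 14859 over local backgrounds of 26 to 72.5, and those of RIGI, IFIH1, DHX58, MAVS, TLR3, EIF2AK2 and CGAS ranged from 532 to 6109. ZBP1, by contrast, was near background. Its probe for NM_001160419 read 247 with pre-miR-424 over a local background of 73 in the normal labelling and 144 over 30 after the swap, against 78 over 31 and 123.5 over 66 with control. Its other probe, for NM_030776, was not well above background in any channel. No member spot was saturated or marked as an outlier. The 9 member probes printed as 2 spots differed between their spots by at most 0.20 on the log2 scale in the normal labelling and 0.12 in the swap.

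**Figure D1:**
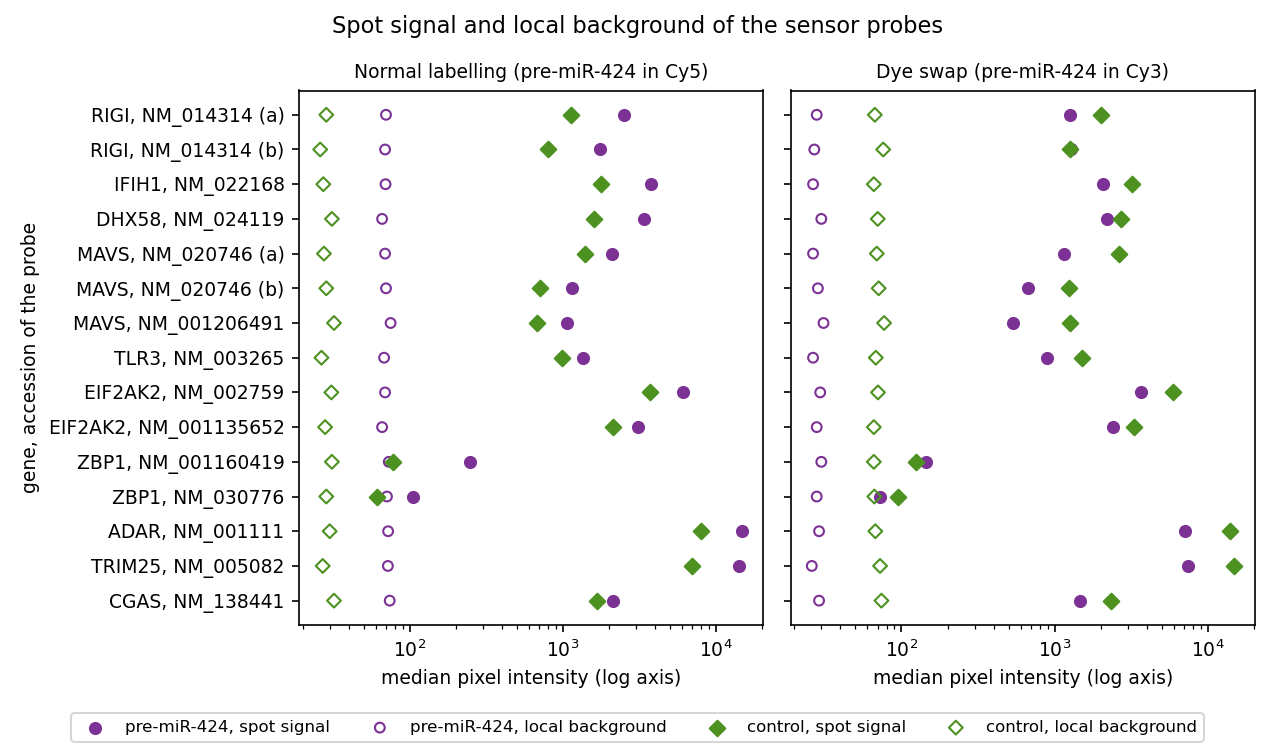
Median pixel intensity of each sensor probe (filled symbols, log axis) and its local background (open symbols) for pre-miR-424 (purple circles) and control (green diamonds) on the normal labelling (left) and the dye swap (right). Both ZBP1 probes sit close to their backgrounds, where all other probes lie at signals of 532 or more.

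The cytosolic RNA helicases and ZBP1 were higher in cells with pre-miR-424 on both arrays, while the adaptor MAVS, the endosomal receptor TLR3 and the DNA sensor CGAS had opposite signs on the arrays. With 1 probe per gene, the brightest, 7 of the 10 genes (RIGI, IFIH1, DHX58, EIF2AK2, ZBP1, ADAR and TRIM25) were higher on both arrays and 0 were lower on both, against 26.8% and 26.7% of all measured genes. When loess was replaced by median centring, which moved the median of all genes to 0.13 with normal labelling and −0.23 after the swap, ADAR and TRIM25 turned negative on the swap and 5 genes were higher on both. At a threshold of 0.3 on the log2 scale on both arrays, which was added after the values were seen, 3 genes were higher (IFIH1, DHX58 and ZBP1) and 0 lower, against 2.77% and 2.62% of measured genes. At 1.5-fold 1 gene was higher (ZBP1) and 0 lower, against 0.623% and 0.391%, and at 2-fold 0 were higher or lower, against 0.0724% and 0.029%. Over the 14 measured probes, 9 were higher on both arrays and 0 lower, against 25% and 26.4% of all measured probes. At 0.3, 4 probes were higher and 0 lower, against 2.38% and 2.51%. At 1.5-fold 1 probe was higher, against 0.421%, with 0.429% of all probes lower, and at 2-fold 0 were, against 0.0546% higher and 0.0857% lower. The median log2 ratio of the 10 genes was 0.20, with 0.27 in the normal labelling and 0.29 in the swap, beside −0.0042 for all measured genes.

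**Figure D2:**
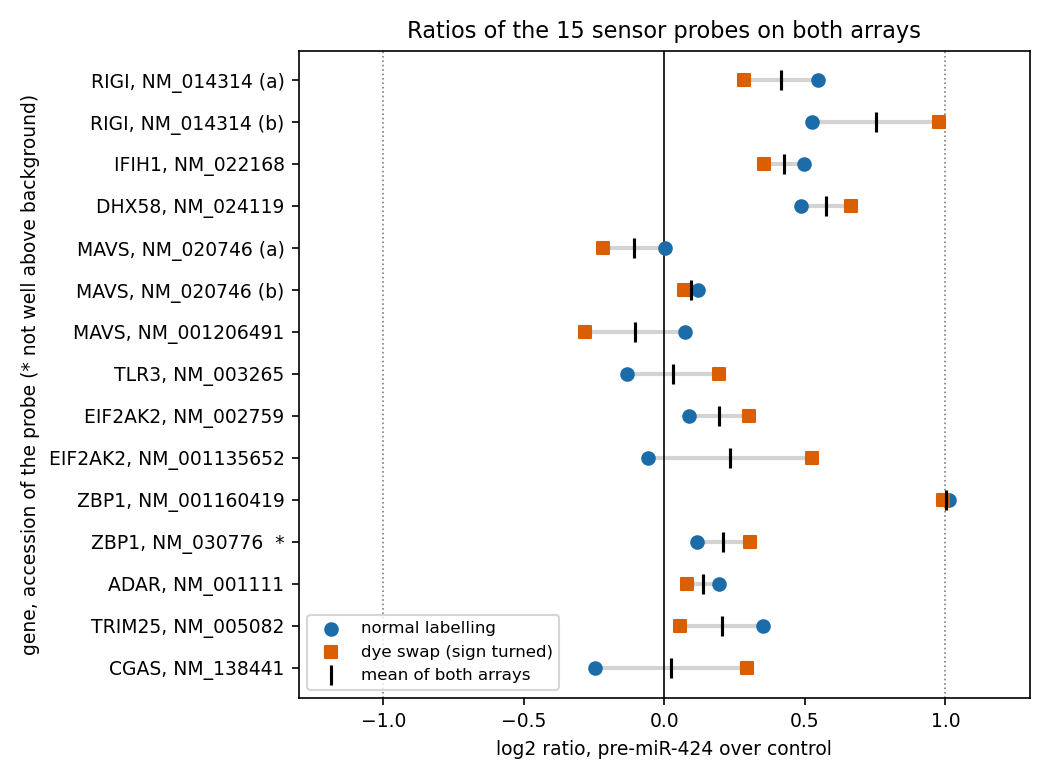
Log2 ratio of pre-miR-424 over control for each of the 15 sensor probes on the normal labelling (blue circles) and the dye swap (orange squares, sign turned), with the mean of both arrays as a black tick and 2-fold as dotted lines. Letters a and b tell apart probes of the same accession, the brighter one first. Both probes of RIGI and those of IFIH1, DHX58 and ZBP1 lie to the right of 0 on both arrays. CGAS, TLR3, 2 MAVS probes and the dimmer EIF2AK2 probe lie on either side of 0.

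The array-to-array spread against which these ratios are read was taken from all measured genes. With the swap turned, the ratios of these genes correlated only weakly between the arrays (Pearson 0.21). Their SD was 0.24 with normal labelling and 0.27 after the swap. Most of the spread seen with either labelling was thus not repeated with the other. From the differences between the arrays, the array-to-array spread was 0.16 on the log2 scale (SD) for the mean of both, and 0.23 for 1 array alone. It also holds dye effects particular to a gene, which cancel in the mean. It can thus overstate the error of the mean. The mean ratios of ZBP1, DHX58, IFIH1 and RIGI were 0.41 or more and exceeded both values of this spread. Those of TRIM25 (0.20), EIF2AK2 (0.19) and ADAR (0.14) were about as large as the spread of 0.16, and those of TLR3, CGAS and MAVS were smaller.

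ZBP1 had the largest ratio of the members. Its probe for NM_001160419 gave a log2 ratio of 1.01 with normal labelling and 0.99 after the swap (mean 1.00, SD 0.015), so that the swap fell just short of 2-fold. Ratios of the other genes are given in the same order, normal labelling first. Compared within each dye, before normalization, the signal of ZBP1 was 247 with pre-miR-424 against 123.5 with control in Cy5, and 144 against 78 in Cy3. Of 13812 measured genes, 17 had a mean ratio at least as high, ZBP1 included, and 11 had a ratio of at least 0.99 on both arrays. The probe's mean intensity lay at percentile 6.40 of the measured genes' probes (mean log2 of both channels), and its ratio moved with the handling of background. The mean was 1.35 with a normexp offset of 16 and 2.11 (4.32-fold, with 2.06 and 2.16 on the arrays) in the scanner software's own log ratios, whereas it was 1.05 without background correction. The probe for NM_030776 gave 0.12 and 0.30, but at a signal that was not well above background. The 2 probes carry the accessions of different ZBP1 transcripts, and whether the transcripts differed was not tested.

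Among the RNA helicases, DHX58, which modulates the others, had a single probe. It gave log2 ratios of 0.49 with normal labelling and 0.66 after the swap (mean 0.58, SD 0.13, 1.49-fold). In Cy5 its signal was 3378 against 2703 in control cells, and in Cy3 it was 2181 against 1601. In all, 140 measured genes (1.01%) had a mean ratio at least as high as that of DHX58.

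IFIH1, the sensor of long double-stranded RNA, gave 0.50 and 0.35 (mean 0.43, SD 0.10, 1.34-fold), and both of its spots were positive on both arrays. In Cy5 it read 3801 against 3194 in control cells, and in Cy3 2074.5 against 1773. With 295 genes at or above its mean (2.14%), IFIH1 differed in its mean from DHX58 by less than the array-to-array spread of 1 array.

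RIGI, which recognises the ends of double-stranded RNA, had a pair of probes for the same accession. The brighter one gave 0.55 and 0.28 (mean 0.41, SD 0.19, 1.33-fold), with signals of 2498.5 against 2011.5 in Cy5 and 1250.25 against 1132 in Cy3. The other gave 0.53 and 0.98 (mean 0.75, SD 0.32, 1.68-fold), with 1740.5 against 1259 in Cy5 and 1273 against 803.5 in Cy3. The probes thus shared their direction on both arrays and nearly their value on the normal array, and differed in size on the swap. Averaged over both probes, RIGI gave 0.54 and 0.63 (mean 0.58). By its brightest probe, 320 genes (2.32%) had a mean at least as high.

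**Figure D3:**
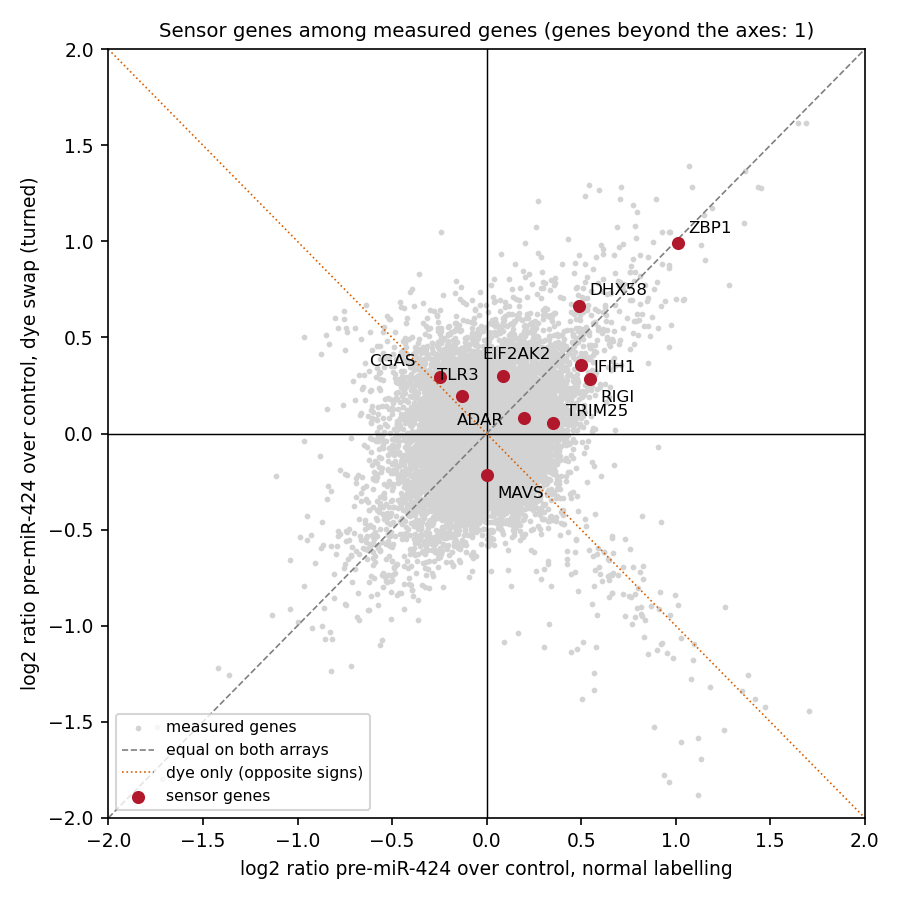
Log2 ratio of pre-miR-424 over control on the normal labelling (x axis) against the dye swap (y axis, turned), for measured genes (grey, brightest probe, with 1 gene beyond the axes) and the 10 sensor genes (red). The dashed line marks equal ratios on both arrays and the dotted line a pure dye effect. ZBP1, DHX58, IFIH1 and RIGI lie in the upper right along the dashed line, and CGAS and TLR3 lie on or beside the dotted one.

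TRIM25, an E3 ubiquitin ligase that acts with RIGI, gave 0.35 and 0.06 (mean 0.20, SD 0.21). Its signal in Cy5 was 14207 against 14674 in control cells, and in Cy3 7347.5 against 6943.5. These raw signals had opposite order in the dyes, but they were not adjusted for the unlike brightness of the arrays. MAVS, the adaptor that both helicases use, had 3 probes. The brightest gave 0.0020 and −0.22, the second probe of NM_020746 gave 0.12 and 0.07, and the probe of NM_001206491 gave 0.07 and −0.28. The highest ratio of any MAVS probe on either array was thus 0.12, below every value of the helicases.

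EIF2AK2, the kinase PKR, gave 0.09 and 0.30 (mean 0.19, SD 0.15, 1.14-fold) by its brightest probe. The probe of NM_001135652 gave −0.06 and 0.53, with opposite signs. Both probes were more positive on the swap, and neither reached 0.3 on both arrays. ADAR, the editing enzyme, gave 0.20 and 0.08 (mean 0.14, SD 0.083, 1.10-fold). Its signals were 14859 against 13826 in Cy5 and 7058 against 8057 in Cy3, again in opposite order without adjustment for array brightness.

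TLR3 gave −0.13 with normal labelling and 0.19 after the swap (mean 0.03, SD 0.23). For CGAS the values were −0.25 and 0.30 (mean 0.02, SD 0.38). Both genes had signals well above background in both kinds of cells, with 884 to 1498.5 for TLR3 and 1456.5 to 2322.5 for CGAS. The part of the ratio that follows the dye, which is the difference between the arrays divided by 2, was −0.27 for CGAS and −0.16 for TLR3, larger in size than their means.

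The means of the helicases varied little with the processing. Under an offset of 16, no background correction, the scanner software's ratios and the deposited table of log2 ratios, the same 7 genes were higher on both arrays. The mean of DHX58 lay between 0.51 and 0.58 over these settings and median centring, that of IFIH1 between 0.36 and 0.43, and that of the brighter RIGI probe between 0.36 and 0.44. Median centring drew the arrays apart, to 0.68 and 0.03 for RIGI, 0.64 and 0.08 for IFIH1 and 0.27 and 0.0034 for EIF2AK2, and the means of TLR3 and CGAS became −0.03 and −0.04.

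**Figure D4:**
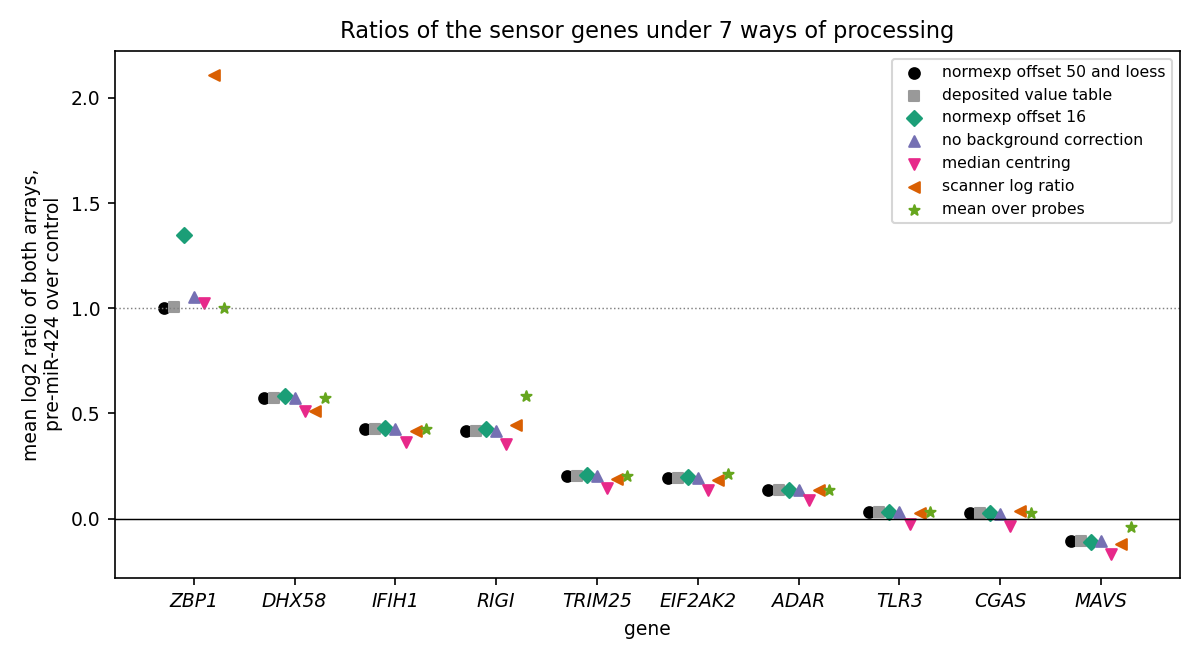
Mean log2 ratio of both arrays for each sensor gene (x axis, in the order of the mean) under 7 ways of processing, with 2-fold as a dotted line. ZBP1 ranges from 1.00 to 2.11, RIGI is higher when its probes are averaged (0.58), and the means of DHX58 stay between 0.51 and 0.58 and those of IFIH1 between 0.36 and 0.43.

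Other genes of the same pathways were described by 8 lists of 87 genes, of which 77 were measured. Among these 77, each read by its brightest probe, 34 were higher on both arrays and 19 lower, with a median of 0.08, beside 26.8% and 26.7% of all measured genes. At 1.5-fold on both arrays 2 were higher and 0 lower, beside 0.623% and 0.391%, and at 0.3 on the log2 scale 8 were higher and 1 was lower, beside 2.77% and 2.62%. These lists come from general knowledge of the pathways, but they and the members were chosen with earlier results of these data known.

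Of the output factors of the sensors, 9 of 11 were measured, 4 were higher and 2 lower on both arrays, where 26.8% and 26.7% of all measured genes were, and the median was 0.10. CXCL10, an interferon-induced chemokine, gave 0.79 and 1.15 (mean 0.97, SD 0.26), and its other measured probe gave 0.72 and 0.83. IRF7, the transcription factor that amplifies interferon production, gave 1.04 and 0.69 (mean 0.87, SD 0.24). These were the 2 listed genes past 1.5-fold. CCL5, a chemokine, gave 0.37 and 0.39, while NFKB1, a subunit of NF-κB, gave −0.07 and −0.26. IRF3, which the sensors activate by phosphorylation, gave 0.15 and −0.15, and 0.09 and −0.34 by its other probe. The interferon gene IFNB1 was well above background in both channels of the normal array, but on the swap with pre-miR-424 alone. It was therefore not among the measured genes. In Cy5 its signal was 155.25 over a local background of 75.5, against 128.75 over 71.5 in control cells. In Cy3 it was 89.25 over 29.5, against 88 over 32 in control cells. Its log2 ratios were 0.17 and 0.27, at signals near background. IFNL1 gave 0.12 and 0.08. IFNL2 gave 0.28 and −0.08, and IFNL3, a near-identical copy whose RNA may bind the same probe, was not well above background.

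Of the other RNA sensors 10 of 13 were measured, with a median of 0.01. Of these, 5 were higher and 4 lower on both arrays, beside 26.8% and 26.7% of all measured genes. DDX60, a helicase linked to RIGI, gave 0.46 and 0.62, and LSM14A, an RNA-binding protein of processing bodies, gave 0.42 and 0.38. ZC3HAV1, the antiviral protein ZAP, gave 0.16 and 0.22, but its other probe gave −0.17 and 0.20. ZNFX1, a helicase, gave 0.09 and 0.28, and its other probes gave 0.17 and −0.11, and 0.42 and 0.63. The endosomal receptors TLR7 and TLR8 and the cytosolic NOD2 were not well above background.

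The other eIF2 kinases and the partners of PKR lay in both directions. All 11 were measured, with a median of 0.06. On both arrays 4 were higher and 4 lower, beside 26.8% and 26.7% of all measured genes. EIF2S1, the eIF2 subunit that PKR phosphorylates, gave 0.56 and 0.86 (mean 0.71, SD 0.21), and DDIT3, a stress transcription factor, gave 0.38 and 0.45. TARBP2, which binds double-stranded RNA and inhibits PKR, gave −0.32 and −0.58 (mean −0.45, SD 0.18), and PPP1R15A, which directs the phosphatase of eIF2, gave −0.16 and −0.50. The other eIF2 kinases were smaller in size, with −0.08 and −0.21 for EIF2AK1, −0.10 and 0.38 for EIF2AK3 and 0.03 and 0.08 for EIF2AK4.

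**Figure D5:**
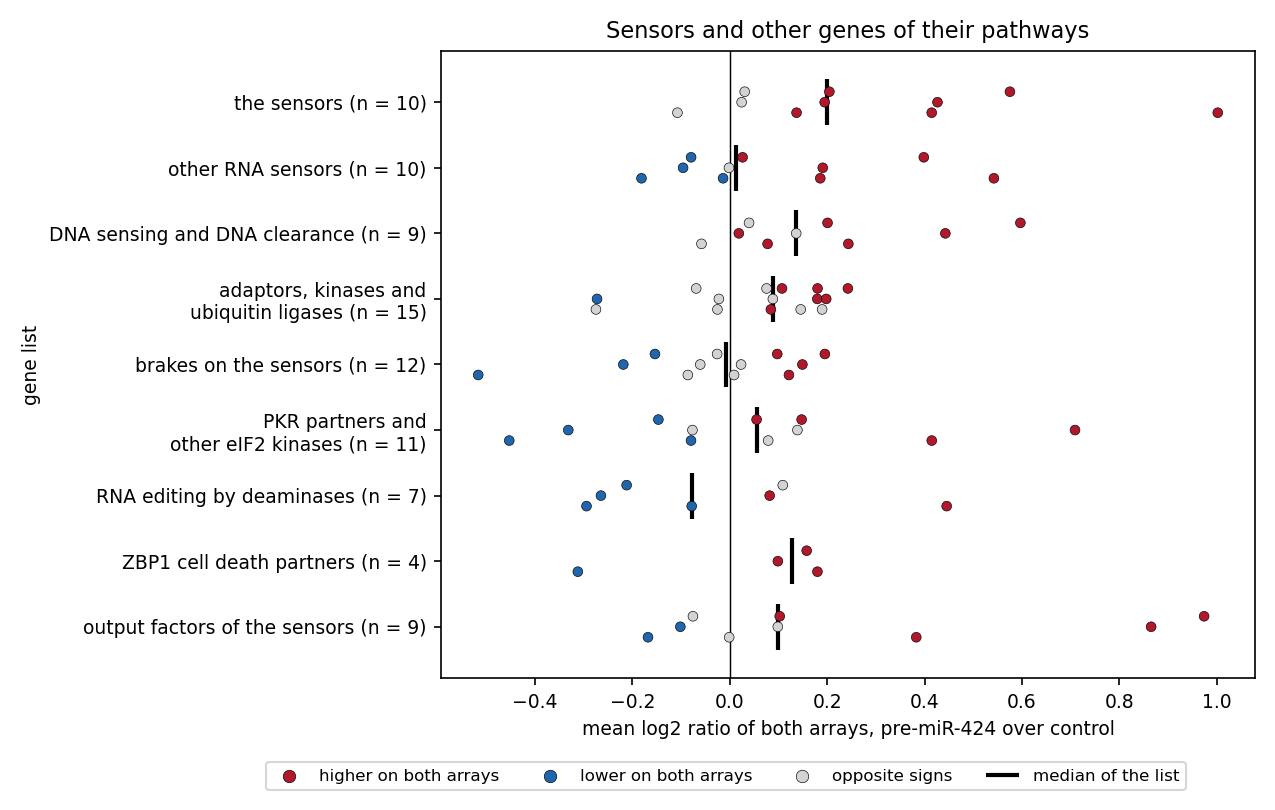
Mean log2 ratio of both arrays for each measured gene of the sensors and of the 8 lists (rows), coloured by whether the gene was higher on both arrays (red), lower on both (blue) or of opposite signs (grey), with the median of a list as a black bar. The sensors have the highest median (0.20), and the medians of the lists lie between −0.08 and 0.14.

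The adaptors, kinases and ubiquitin ligases downstream were all measured (15 of 15), with a median of 0.09. On both arrays 6 were higher and 1 lower, beside 26.8% and 26.7% of all measured genes. The other 8 had opposite signs, as had 6422 of all 13812 measured genes. By their brightest probes, none of them passed 0.3 on both arrays, where 2.77% of measured genes were higher and 2.62% lower. MYD88, the adaptor of most Toll-like receptors, gave 0.20 and 0.29, TRAF2 gave 0.18 and 0.21 (other probe 0.28 and 0.21), and TOMM70, which links MAVS to its kinases, gave −0.48 and −0.07. TICAM1, the adaptor of TLR3, gave 0.28 and 0.08, but its other probe gave −0.45 and −0.23. The kinases TBK1 and IKBKE gave 0.0048 and 0.16, and 0.06 and 0.16.

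Of the deaminases, 7 of 8 were measured, with a median of −0.08. Of these, 2 were higher and 4 lower on both arrays, beside 26.8% and 26.7% of all measured genes. APOBEC3G, a cytidine deaminase that acts on retroviral DNA, gave 0.47 and 0.42, against −0.34 and −0.19 for APOBEC3C and −0.28 and −0.15 for APOBEC3F, whose other probe gave −0.08 and 0.22. APOBEC3A was not well above background. Probes of this closely related family may share RNA. ADAT1, which edits transfer RNA, gave −0.19 and −0.40, and ADARB1, the relative of ADAR, gave −0.03 and 0.25 and, by its other probe, 0.07 and 0.07. Of the partners of ZBP1 in cell death, 4 of 5 were measured, with a median of 0.13. MLKL, the pore-forming protein of necroptosis, gave 0.27 and 0.09, RIPK1 0.09 and 0.23 and FADD 0.18 and 0.016, whereas the protease CASP8 gave −0.52 and −0.11. RIPK3, the kinase through which ZBP1 acts, was not well above background by either of its probes.

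The cell type was checked with marker genes. All 8 epithelial and basal markers, among them KRT5, KRT14 and TP63, were measured, with a median ratio of 0.0019. However, 7 of them had opposite signs on the arrays, as had 6422 of all 13812 measured genes (KRT5 0.09 and −1.09, KRT18 0.73 and −0.55, with 0.21 and −0.06 by its other probe). By contrast, the luminal prostate gene KLK3 was not well above background. Of 5 leukocyte markers 4 were measured (median −0.08), with CD3E not well above background and PTPRC above it at 1 of its 4 probes, and of 4 fibroblast and endothelial markers 2 were (median 0.14). By their brightest probes, no marker passed 0.3 on both arrays, where 2.77% of measured genes were higher and 2.62% lower. The other probe of the basal integrin ITGA6, however, gave 0.42 and 0.36. The part of other cells in the results was not tested. In RNA of whole cultures, a change in the number of cells that express a gene and a change per cell cannot be told apart.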

How the data were processed

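RNA of RWPE-1 cells that received pre-miR-424 or control was hybridised to 2 two-colour arrays, a dye swap of 1 comparison, and groups and dyes were taken from the labels. The deposited scanner files (Agilent Feature Extraction 10.7.3.1) give the median pixel intensity of each spot and of its local background, not normalized, and processed intensities. They also hold, as deposited, log10 ratios of Cy5 over Cy3 made by the scanner software, corrected for background and dye. A second deposited table holds log2 ratios, made with limma per the labels, whose scale, centring and direction are not stated. Set against the values computed here, its columns were Cy5 over Cy3 on both arrays, without a turn of the swap, with correlations of 0.991 and 0.988 over 42405 probes, median absolute differences of 0.000563 and 0.000786, and medians of 0.024 and 0.036.

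Background was removed from median signals by normexp in limma 3.58.1 under R 4.3.3. The offset of 50 pulls ratios of dim probes towards 0 and understates their changes. Control spots were then left out, each array was normalized by loess, repeat spots were averaged, and the swap was turned. A probe was measured when both channels of both arrays were well above background (at more than 0.5 of its spots) and free of outlier spots. A gene was read by its brightest measured probe. RefSeq accessions stood on 26599 probes, of which 25769 (96.9%) were found in the RefSeq gene table (GRCh38.p14), used for names only, since the array design is on hg19. Calls needed 2-fold, 1.5-fold or 0.3 on the log2 scale on both arrays, in the same direction. All members were named with all probes, and of each list the genes past 1.5-fold, up to 4 with the largest mean ratio among those of equal sign, and those not above background. Further listed genes named (IRF3, IFNL1, IFNL2, EIF2AK1, EIF2AK3, EIF2AK4, TBK1, IKBKE, ADARB1, STING1, USP15) were chosen for their role or, for USP15, a second probe, after values were seen. The members and lists were chosen with earlier results of these data known. The normalization and the 2-fold call were tested on simulated data, in which all changes were beyond 2-fold. Smaller changes and the lower thresholds were not tested in this way. The number of arrays limits the precision. Python 3.11.15 with pandas 2.3.3 and numpy 2.4.6 was used. Alternatives changed the offset, the background correction, the normalization, the filters, the probes of a gene and the arrays used.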

Additional observations from a re-analysis of the deposited data

How the results depend on the processing

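The mean ratio of ZBP1, whose arrays differed little (SD 0.015), was 1.35 with an offset of 16, 1.05 without background correction, 1.03 under median centring and 2.11 with the scanner ratios, against 1.00. That of RIGI was 0.58 with averaged probes against 0.41 (SD 0.19). The filters on dim probes and outlier spots left every member's value as it was. They could not have changed it, because each member's brightest probe passed both and no member spot was an outlier. The count of members past 2-fold became 1 (ZBP1) with an offset of 16, without background correction and with the scanner ratios, against 0. On the swap, ZBP1 gave 1.33, 1.09 and 2.16 in these settings, against 0.99 with an offset of 50 and a threshold of 1. Why its ratio moved was not tested. The members' median was 0.14 under median centring and 0.19 with the scanner ratios. In the same settings the median of the other RNA sensors was −0.039 and −0.0047, and that of the adaptors 0.034 and 0.10; it was 0.071 for the DNA sensing list and 0.071 for the ZBP1 partners under median centring. Without a filter on dim probes, more genes entered, and the medians were −0.014 for the other RNA sensors and 0.10 for the DNA sensing list; with the mean over probes the former was −0.0014. With the scanner ratios, 67 of all measured probes passed 2-fold and 428 passed 1.5-fold, against 36 and 218.

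With the swap alone or the normal array alone, members past 2-fold ranged from 0 to 1, past 1.5-fold from 1 to 2 (DHX58 passed on the swap), and past 0.3 on the log2 scale from 4 to 5. The members' median ranged from 0.27 to 0.29, and the medians of the lists from 0.017 to 0.034 (other RNA sensors), 0.11 to 0.13 (DNA sensing), 0.059 to 0.078 (adaptors), −0.14 to 0.038 (brakes), −0.10 to 0.078 (PKR partners), −0.14 to −0.031 (deaminases), 0.055 to 0.14 (ZBP1 partners) and −0.083 to 0.15 (output factors). Listed genes past 1.5-fold ranged from 2 to 7, and all probes past 2-fold and 1.5-fold from 86 to 133 and from 662 to 912, as the repeat on the other array was not required. The mean pixel signal, planned as an alternative, was not analysed here. No paired analysis was possible because both RNAs shared each array and the ratio within an array is already paired. Signal over background limits ZBP1 in particular.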

Other observations

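Genes that restrain the sensors, and those that sense or clear DNA, were not described above. All 12 of the former were measured, with 4 higher and 3 lower on both arrays by their brightest probes, beside 26.8% and 26.7% of all measured genes, and a median of −0.0085. The largest value was that of NLRX1, a mitochondrial protein that binds MAVS, at −0.23 with normal labelling and −0.80 after the swap on the log2 scale (mean −0.52, SD 0.40). USP21, a deubiquitinase of RIGI, gave −0.20 and −0.23 (other probe −0.34 and −0.07), and PCBP2, which promotes degradation of MAVS, gave −0.18 and −0.13 with further probes at −0.25 and −0.04, and at −0.26 and −0.21. CYLD, another deubiquitinase, gave 0.16 and 0.23. By its brightest probe none passed 0.3 on both arrays, beside 2.77% of all measured genes that were higher and 2.62% that were lower by this rule. The other probe of USP15, a deubiquitinase of TRIM25, did so with −0.40 and −0.41, whereas its brightest gave −0.18 and 0.06.

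Of the genes of DNA sensing and DNA clearance, 9 of 12 were measured, with 6 higher and 0 lower on both arrays, beside 26.8% and 26.7% of all measured genes, and a median of 0.14. SAMHD1, which degrades deoxynucleotides, gave 0.20 and 0.99 (mean 0.60, SD 0.56), but its other probe gave 0.22 and 0.19, so that the size rested on 1 probe on the swap. IFI16, a nuclear DNA sensor, gave 0.13 and 0.75 (mean 0.44, SD 0.44). RNASEH2C, a subunit of ribonuclease H, gave 0.13 and 0.36, and DNASE2, a lysosomal nuclease, 0.29 and 0.11. STING1, the receptor of the messenger that CGAS makes, gave 0.33 and −0.06. AIM2 and TLR9 were not well above background, and no probe was found by accession for TREX1, which was therefore not assayed.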
